A study of Mus musculus with 12 samples.

Results

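Mast cell genes were examined in skin papillomas with and without epidermal Fos, through 8 genes listed by symbol: the granule proteases Cma1, Mcpt4, Cpa3 and Tpsb2, the receptor genes Fcer1a, Ms4a2 and Kit, and the histamine-forming enzyme Hdc. Of these 8 genes 7 had a probe under the platform's gene symbol, Tpsb2 under its older name Mcpt6, and 6 were measured, out of 22018 features tested (13327 named genes and 8691 unnamed probes). The Ms4a2 probe was empty on all 12 arrays and no probe was annotated to Hdc, so neither has a value. The genes were measured in tail papillomas of 6 mice, 1 specimen per mouse: 3 Fos-deficient papillomas (c-Fos Δ/Δ, specimens 6, 8 and 9), in which Fos is deleted in the epidermis only, and 3 Fos-floxed papillomas (c-Fos fl/fl, specimens 2, 3 and 5), in which both floxed alleles are active. All 6 mice carried an active Sos transgene under the keratin 5 promoter, which is used in basal keratinocytes and switches on Ras, on a mixed background of 129/Ola, C57BL/6, CBA, LVA and B6C3F1. Their age is not given in the sources used here, nor is the Cre line, and the labels call their sex unknown. Each papilloma RNA was hybridised with the dyes exchanged on 2 arrays against a reference RNA pooled from mouse cell lines. A value is the log2 ratio of papilloma over that reference, the likely but unstated direction, averaged over the 2 arrays of a specimen, and a difference is Fos-deficient minus Fos-floxed. With the ratio turned, every value and difference would change sign.

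Mast cells are long-lived immune cells of connective tissue, frequent in the dermis and around its vessels. Their granules store proteases bound to proteoglycan together with histamine, and are released when antigen cross-links IgE on the high-affinity IgE receptor. That receptor has an alpha chain that binds IgE (Fcer1a), a beta chain that amplifies the signal (Ms4a2) and a signalling gamma chain shared with other immune receptors (Fcer1g). Growth and survival depend on Kit, the receptor of stem cell factor, and the transcription factor Gata2 is needed for the mast cell lineage and for several of its genes. In skin tumours mast cells are known to gather in the stroma around the epithelium.

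Of the measured members, 4 had the widest upward separation between group means, and each was highest in Fos-deficient specimen 6. The order of the other specimens differed among them. The promoters of these 4 genes are shown. They are from the RefSeq promoter table of build GRCm38.p6, 250 bases before to 50 bases after the gene's start, 5′ to 3′ in the direction of the gene, and the arrays' own files name no build. Capitals mark the 6 letters recognised by GATA factors (AGATAA in one form, AGATAG in another, TGATAA in a further one and also TGATAG, on either strand).
Cma1 (chr14:55944626-55944925, minus strand): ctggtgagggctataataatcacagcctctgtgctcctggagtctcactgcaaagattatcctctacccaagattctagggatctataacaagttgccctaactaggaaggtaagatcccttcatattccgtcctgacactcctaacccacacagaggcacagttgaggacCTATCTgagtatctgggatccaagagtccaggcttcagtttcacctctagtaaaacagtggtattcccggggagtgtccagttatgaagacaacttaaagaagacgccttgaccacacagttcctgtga
Cpa3 (chr3:20242132-20242431, minus strand): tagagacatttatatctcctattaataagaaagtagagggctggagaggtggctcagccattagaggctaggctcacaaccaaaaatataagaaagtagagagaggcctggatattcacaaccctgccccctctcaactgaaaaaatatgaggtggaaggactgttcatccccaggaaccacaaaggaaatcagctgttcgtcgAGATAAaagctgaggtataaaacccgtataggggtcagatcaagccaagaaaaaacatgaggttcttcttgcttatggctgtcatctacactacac
Mcpt4 (chr14:56062261-56062560, minus strand): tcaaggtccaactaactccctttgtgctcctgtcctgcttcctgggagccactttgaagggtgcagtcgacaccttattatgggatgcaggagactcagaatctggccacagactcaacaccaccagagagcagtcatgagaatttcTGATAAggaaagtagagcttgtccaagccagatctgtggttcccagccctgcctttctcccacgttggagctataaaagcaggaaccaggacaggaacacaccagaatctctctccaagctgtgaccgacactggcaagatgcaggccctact
Fcer1a (chr1:173227180-173227479, minus strand): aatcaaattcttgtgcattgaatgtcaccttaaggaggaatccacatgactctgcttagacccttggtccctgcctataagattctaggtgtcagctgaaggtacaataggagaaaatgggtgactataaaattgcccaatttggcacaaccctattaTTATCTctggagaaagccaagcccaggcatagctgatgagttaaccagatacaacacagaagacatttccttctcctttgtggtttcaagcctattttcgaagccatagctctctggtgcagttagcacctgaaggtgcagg
Each of these windows held 1 such match, starting at position -79 in Cma1, -46 in Cpa3, -103 in Mcpt4 and -92 in Fcer1a, counted from the start site. Of the 7 members with a listed promoter, 6 held a match, Hdc with 1, Ms4a2 with 3 and Kit with 0, and 29.8% of all 32851 windows of that length hold one. The AP-1 letters TGANTCA, read on both strands, were found in 0 of the 7 and in 7.81% of all windows. No match of the 2 motifs overlapped another. The table has no entry for Tpsb2.

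All 70 array values of the 6 measured members lay above 0, from 0.41 to 5.75, so on every array with a value each gene lay on the papilloma side of the ratio, if its direction is papilloma over reference. Of 20456 features with a value in every specimen, 33.0% lay above 0 in all 6. A ratio to the reference depends on the reference too, so ratios are compared between papillomas and not between genes. Fos itself was at -4.01, -4.43 and -3.91 in Fos-deficient specimens 6, 8 and 9, against -1.30, -0.56 and -1.56 in Fos-floxed specimens 2, 3 and 5. Its difference was -2.98 (SE 0.29), with an adjusted p of 0.203 in limma, which did not pass, and where its probe lies relative to the deletion was not determined.

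No member passed the test between genotypes. In limma, with Benjamini-Hochberg adjustment over all features, 0 of the 6 members and 0 of the 22018 features had an adjusted p under 0.05, a background of 0%. At an unadjusted p under 0.05 there was 1 of 6 members, Cma1, which lay higher, against a background of 4.01% of features higher (884) and 8.48% lower (1867). Between the papillomas of the 2 genotypes 5 members lay higher and 1 lower, where 49.6% of all features lay above 0, and the median difference was 0.63 over the members and -0.002 over all features tested. The members were chosen with earlier results of these data known, and this contrast with all features was not tested. No member separated the groups without overlap, as 19.7% of complete features did. Exact two-sided permutation tests of the 6 members gave p between 0.2 and 0.9, and 3 specimens against 3 cannot give less than 0.1. The median over the members was 1.01 on the arrays with the papilloma in Cy5 alone and -0.07 on those with the papilloma in Cy3 alone. It was 0.34 without Fos-deficient specimen 6 and 0.39 without Fos-floxed specimen 3, and 0.89 without Fos-deficient specimen 9 and 0.82 without Fos-floxed specimen 5.

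**Figure D1:**
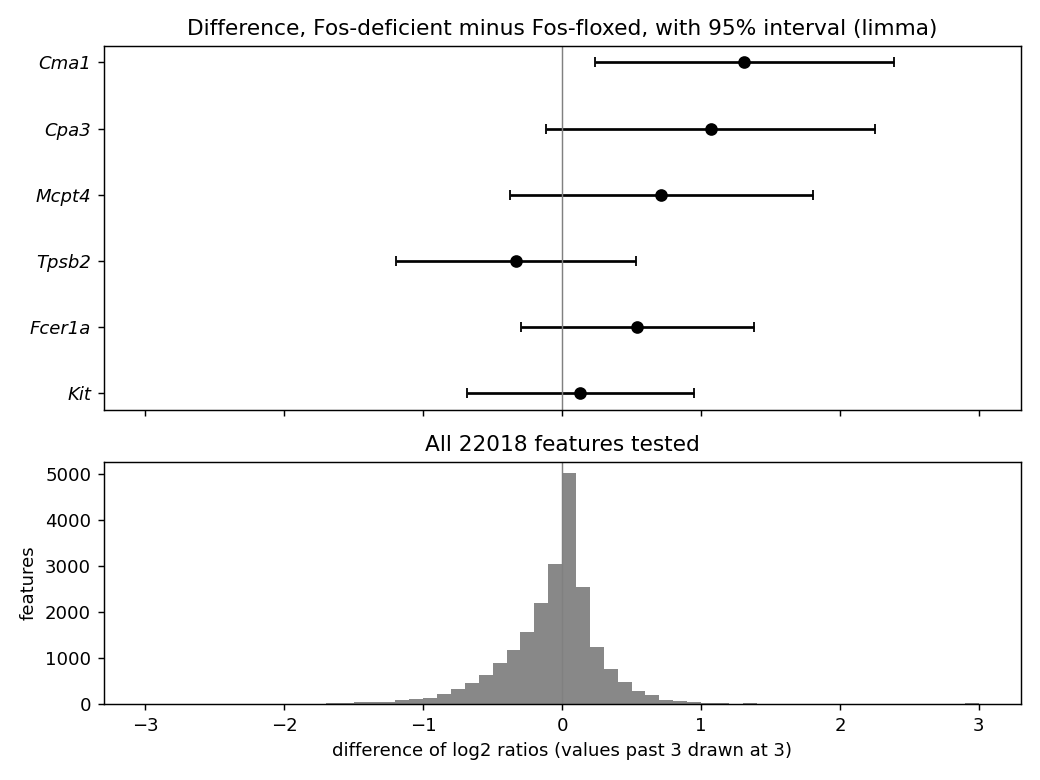
Genotype differences of the 6 measured mast cell genes with limma's 95% intervals (upper panel, difference of log2 ratios on the horizontal axis) above the histogram of the same difference for all 22018 features. The Cma1 interval lies above 0, from 0.24 to 2.39, and the other 5 intervals cross 0.

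The chymase Cma1, a serine protease of connective tissue mast cells known in mice as Mcpt5, had the largest difference among the members. Its log2 ratio was 5.49, 4.90 and 4.329 in Fos-deficient specimens 6, 8 and 9, against 3.45, 3.01 and 4.332 in Fos-floxed specimens 2, 3 and 5. The groups met at their edges, since the lowest Fos-deficient papilloma was level with the highest Fos-floxed one, and in 8 of 9 pairings the Fos-deficient papilloma was the higher. Cma1 averaged 4.91 ± 0.58 in Fos-deficient papillomas and 3.60 ± 0.67 in Fos-floxed papillomas (SD, n = 3 each). The difference was 1.31 (SE 0.43, interval 0.24 to 2.39), or 2.48-fold if the deposited logarithm has base 2, with an unadjusted p of 0.0249 and an adjusted p of 0.324 in limma. It lay between 0.95 and 1.68 under 18 other settings, above 0 in each, with an adjusted p from 0.168 to 0.733 in limma.

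Mcpt4, the other chymase of the set and the one closest in activity to the chymase of humans, was at 3.54, 2.73 and 2.66 in Fos-deficient specimens 6, 8 and 9, against 2.32, 1.47 and 2.99 in Fos-floxed specimens 2, 3 and 5. Specimen 6 rests on 1 array, since the other was empty. The groups overlapped, with Fos-floxed specimen 5 above the Fos-deficient specimens 8 and 9. The difference was 0.72 (SE 0.44) with an adjusted p of 0.560 in limma, and it was 0.43 when both arrays were required or specimen 6 was left out, 0.32 without Fos-floxed specimen 3 and 1.08 without Fos-floxed specimen 5. Its arrays disagreed by dye: the difference was 1.22 with the papilloma in Cy5 alone and -0.23 in Cy3 alone.

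Cpa3, a carboxypeptidase stored in the same granules and found almost only in mast cells and basophils, had the second largest difference. It was at 4.84, 4.67 and 3.65 in Fos-deficient specimens 6, 8 and 9, against 3.23, 2.62 and 4.10 in Fos-floxed specimens 2, 3 and 5. Here Fos-floxed specimen 5 stood above Fos-deficient specimen 9, the only pairing of 9 in which the Fos-floxed papilloma was the higher. The means were 4.38 ± 0.64 in Fos-deficient and 3.32 ± 0.74 in Fos-floxed papillomas (SD, n = 3 each). The difference was 1.07 (SE 0.48, interval -0.12 to 2.25), with an adjusted p of 0.440 in limma. Over 18 other settings it stayed between 0.72 and 1.46.

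Tpsb2, a tryptase of the same granules, did not follow the other proteases. It was at 2.35, 1.94 and 3.18 in Fos-deficient specimens 6, 8 and 9, against 2.94, 2.46 and 3.07 in Fos-floxed specimens 2, 3 and 5. The Fos-deficient papillomas 6 and 8, which were the highest for Cma1 and Cpa3, were the lowest for Tpsb2, and Fos-deficient specimen 9 was the highest. The difference was -0.33 (SE 0.35, interval -1.19 to 0.53) with an adjusted p of 0.718 in limma, it was 0.06 with the papilloma in Cy5 alone and -0.72 in Cy3 alone, and it was -0.05 without Fos-deficient specimen 8 and -0.68 without Fos-deficient specimen 9. Within a papilloma, the Cma1 ratio exceeded the Tpsb2 ratio by 3.14, 2.97 and 1.15 in Fos-deficient specimens 6, 8 and 9, against 0.52, 0.55 and 1.27 in Fos-floxed specimens 2, 3 and 5. The groups overlapped here too, and this pairing was chosen after the values were seen and is given without a test. Tpsb2 and its neighbour tryptase gene Tpsab1 are close in sequence, so signal of the probe cannot be assigned to Tpsb2 alone, and the Tpsab1 probe lay at 0.47, 0.27 and 0.24 in the Fos-deficient specimens, against 0.33, 0.22 and 0.24 in the Fos-floxed specimens.

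**Figure D2:**
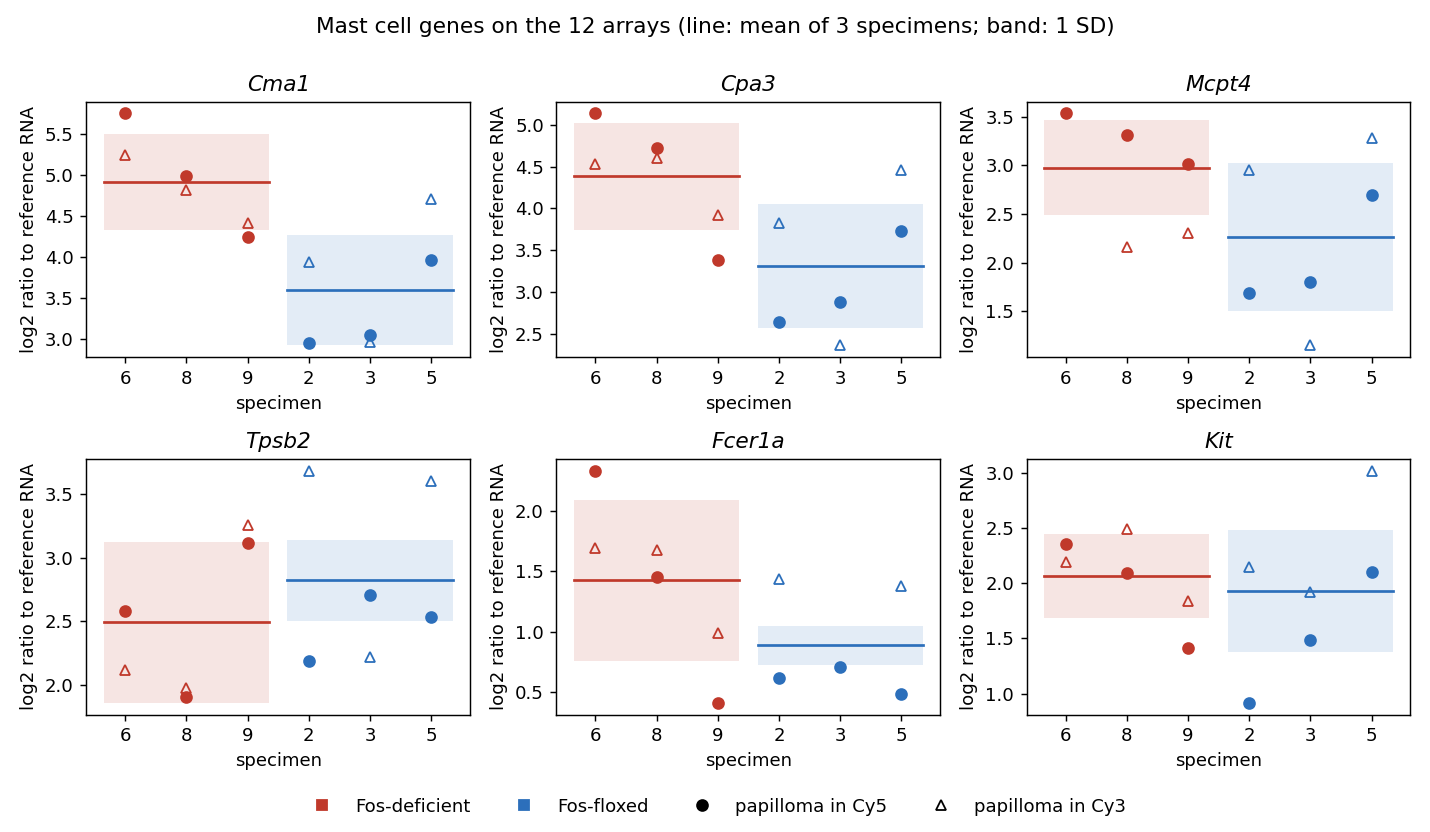
Log2 ratio to the reference RNA (vertical axis) of each measured mast cell gene on each array, by specimen, with Fos-deficient specimens left in red and Fos-floxed specimens right in blue. Filled circles have the papilloma in Cy5 and open triangles in Cy3, lines are means of 3 specimens and bands 1 SD. In specimens 2 and 5 the triangle stands above the circle in all 6 panels.

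Fcer1a, the IgE-binding chain of the receptor, was at 2.02, 1.57 and 0.70 in Fos-deficient specimens 6, 8 and 9, against 1.02, 0.71 and 0.93 in Fos-floxed specimens 2, 3 and 5, specimen 3 from 1 array. Specimens 6 and 8 stood above all Fos-floxed papillomas, and specimen 9 was the lowest of all 6, level with Fos-floxed specimen 3. The difference was 0.54 (SE 0.34) with an adjusted p of 0.565 in limma. It was 0.25 without Fos-deficient specimen 6, 0.90 without Fos-deficient specimen 9 and 0.05 with the papilloma in Cy3 alone.

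Kit, which in skin is also made by melanocytes, had the smallest difference. It was at 2.27, 2.29 and 1.63 in Fos-deficient specimens 6, 8 and 9, against 1.53, 1.70 and 2.56 in Fos-floxed specimens 2, 3 and 5. Fos-floxed specimen 5 was the highest of all 6, and the groups overlapped. The difference was 0.13 (SE 0.33, interval -0.68 to 0.95) with an adjusted p of 0.883 in limma, it was -0.19 with the papilloma in Cy3 alone and 0.45 in Cy5 alone, and leaving out 1 specimen moved it between -0.07 (Fos-floxed specimen 2) and 0.45 (Fos-floxed specimen 5). In RNA from whole papillomas, a different number of mast cells and a different amount of transcript per mast cell cannot be told apart.

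Across the papillomas the members divided into those that were highest in specimen 6 and those that were not. Specimen 6 was the highest for Cma1, Cpa3, Mcpt4 and Fcer1a, and specimen 3 the lowest for Cma1, Cpa3 and Mcpt4. After each gene was centred on its own mean of 6 specimens, the mean over the 6 members was 0.66, 0.26 and -0.06 in Fos-deficient specimens 6, 8 and 9, against -0.34, -0.76 and 0.24 in Fos-floxed specimens 2, 3 and 5. Mcpt4 lay nearest to the mean of the other 5 members, with a root mean square difference of 0.25 over the 6 specimens, and Tpsb2 farthest, with 0.85. Cma1 had the widest span, 2.48, and Kit the narrowest, 1.03.

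The 2 arrays of a specimen moved together across the members in some papillomas. With the papilloma in Cy3 all 6 members were higher than in Cy5 in Fos-floxed specimens 2 and 5, by a median of 1.21 and 0.82, while over all probes the Cy3 arrays of these specimens were lower by a median of 0.11 and 0.10. In Fos-deficient specimen 6 the 5 members with both arrays were all lower in Cy3, by a median of 0.51, against 0.16 over all probes. The genotype differences with the papilloma in Cy5 alone exceeded those in Cy3 alone for each of the 6 members, as the plot of the settings shows.

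**Figure D3:**
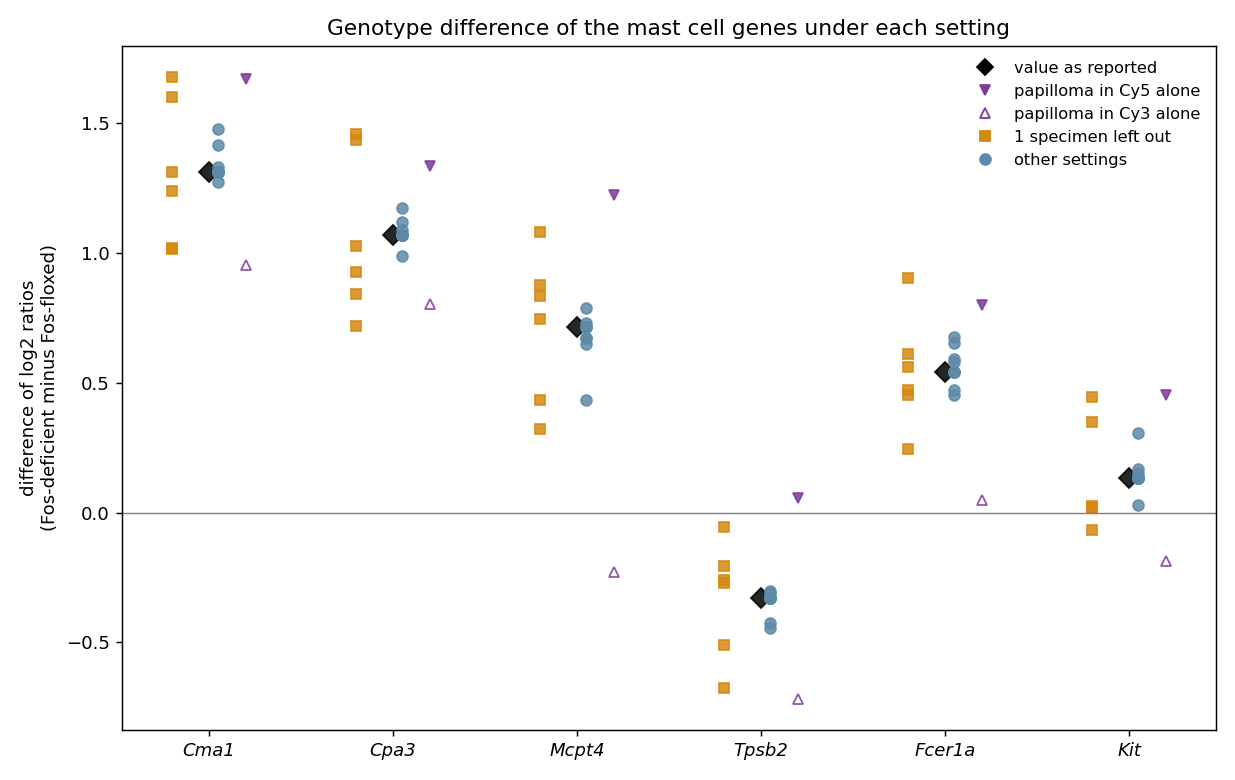
Genotype difference of each measured member (vertical axis, difference of log2 ratios) as reported and under each other setting. Cma1 and Cpa3 stay above 0 throughout, while Mcpt4 and Kit lie below 0 and Fcer1a at 0.05 with the papilloma in Cy3 alone.

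The papillomas also differed in Y-linked signal, which is given because the sex of the mice is not in the labels. Eif2s3y was at -2.97, 2.64 and 2.04 in Fos-deficient specimens 6, 8 and 9, against -3.39, -2.92 and 2.61 in Fos-floxed specimens 2, 3 and 5, and Kdm5d divided them the same way. Among the specimens with a low signal the Cma1 difference was 2.26 (Fos-deficient specimen 6 against Fos-floxed specimens 2 and 3), and among those with a high signal 0.28 (Fos-deficient specimens 8 and 9 against Fos-floxed specimen 5). For Cpa3 these differences were 1.91 and 0.06, and for Fcer1a 1.15 and 0.20. Mcpt4, at 1.64 and -0.29, and Kit, at 0.66 and -0.60, lay on opposite sides of 0 in the low and high classes, and Tpsb2 was at -0.35 and -0.50. With the Y-linked signal as a term the Cma1 difference was 1.27 (SE 0.50, adjusted p of 0.530 in limma) and the Cpa3 difference 0.99 (SE 0.54, adjusted p of 0.638 in limma). Each class holds only 3 specimens, with 1 specimen in one of its genotypes.

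Further genes listed for mast cells were divided, and in RNA from whole papillomas their signal cannot be assigned to mast cells alone. Of 17 genes of granules and their secretion 13 were tested, with 5 higher and 8 lower, a median difference of -0.03, and 0 past the adjusted threshold in limma. At an unadjusted p under 0.05 in limma there was 1 gene of the 13, lower, where 8.48% of all features lay lower at that threshold. It was Rab27b, which tethers secretory granules, with a difference of -0.61 (SE 0.20). Its groups did not overlap, on the side where 10% of complete features lay lower without overlap. Slc18a2, the transporter that loads amines into granules, was at 0.31, 0.59 and -0.72 in Fos-deficient specimens 6, 8 and 9, against -0.73, -0.79 and -0.52 in Fos-floxed specimens 2, 3 and 5. It repeated the order of specimens 6 and 8 above the rest, with a difference of 0.74 (SE 0.35, adjusted p of 0.456 in limma). The tryptase Tpsg1 differed by 0.42 (SE 0.17) without overlap of the groups, where 9.7% of complete features lay higher without overlap.

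Of 19 mast cell receptors and transcription factors 14 were tested, 11 higher and 3 lower, with a median of 0.25 and 0 past the adjusted threshold in limma. At an unadjusted p under 0.05 in limma 3 of them lay higher. Of all features 49.6% lay above 0, and 4.01% lay higher at that unadjusted threshold. Gata2 was at 0.73, 1.34 and -0.59 in Fos-deficient specimens 6, 8 and 9, against -1.004, -0.98 and -0.67 in Fos-floxed specimens 2, 3 and 5. The groups did not overlap for Gata2, and specimen 9 lay close to Fos-floxed specimen 5. On this list 2 of 10 complete genes, Gata2 and Itgb7, lay higher without overlap, against 9.7% of complete features. The difference of Gata2 was 1.38 (SE 0.49) with an adjusted p of 0.351 in limma. Tal1, a partner of Gata factors in blood and mast cell precursors, differed by 0.70 (SE 0.26), and Itgb7, an integrin chain that guides mast cell precursors, by 0.72 (SE 0.23). Fcer1g, the gamma chain, was at 0.65, 0.22 and -0.72 in Fos-deficient specimens 6, 8 and 9, against -1.09, -0.95 and -0.24 in Fos-floxed specimens 2, 3 and 5, a difference of 0.81 (SE 0.41). Mitf, a transcription factor of mast cells and melanocytes with a value in 2 Fos-floxed specimens, differed by -0.28 (SE 0.24). Mrgprb2, a receptor through which mouse mast cells respond to cationic peptides, named after its values were seen, was at 2.97, 2.67 and 1.35 in Fos-deficient specimens 6, 8 and 9, against 1.18 and 1.51 in Fos-floxed specimens 2 and 5, with no value in specimen 3.

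**Figure D4:**
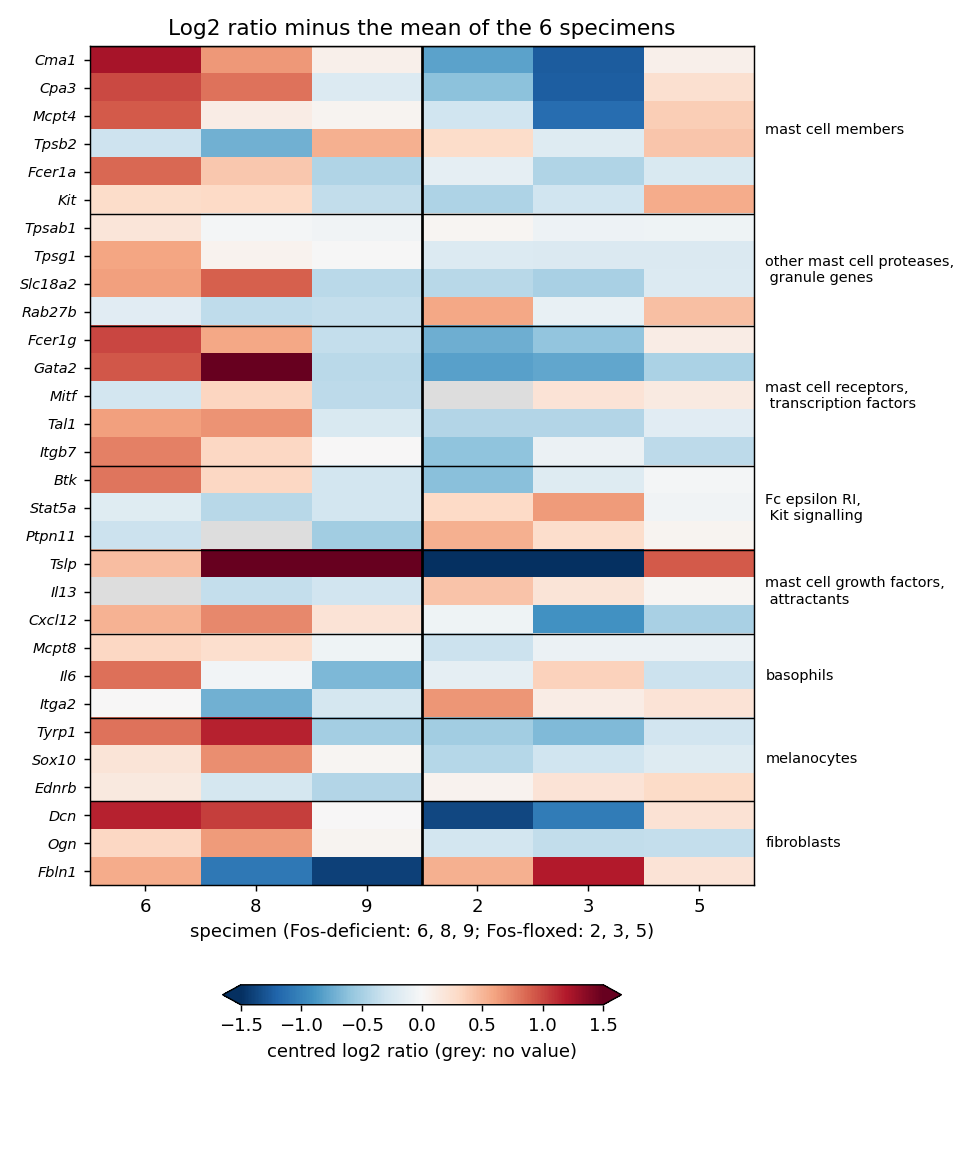
Log2 ratio of each gene minus its mean over the 6 specimens (colour, red above and blue below the mean, grey without a value), for the members and for genes of other mast cell and cell type lists. Cma1, Cpa3, Fcer1a, Slc18a2, Fcer1g, Gata2 and Tal1 are above their mean in specimens 6 and 8. So are the melanocyte gene Tyrp1 and the fibroblast genes Dcn and Ogn, while Tpsb2, Rab27b and Stat5a are below their mean in both.

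Genes of signalling below the IgE receptor and Kit were evenly divided, 9 higher and 9 lower of 18 tested, with a median of 0.02 and 0 past the adjusted threshold in limma. Their smallest unadjusted p belonged to Ptpn11, a phosphatase in Kit signalling (-0.70, SE 0.18, with a value in 2 Fos-deficient specimens), Stat5a, a transcription factor activated by Kit and cytokine receptors (-0.58, SE 0.19), and Btk, a kinase downstream of the IgE receptor (0.56, SE 0.31). Of 7 genes for lipid mediators 5 lay lower, with a median of -0.38. Hpgds, the prostaglandin D synthase of mast cells and other blood-derived cells, was at 2.14, 0.80 and 0.01 in Fos-deficient specimens 6, 8 and 9, against 2.96, 2.77 and 3.41 in Fos-floxed specimens 2, 3 and 5. These groups did not overlap, on the side where 10% of complete features lay lower without overlap, and the difference was -2.06 (SE 0.55) with an adjusted p of 0.259 in limma. Ptgs2, the inducible cyclooxygenase, differed by -2.81 (SE 0.55) and Ptgs1 by -0.41 (SE 0.25).

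Of 15 growth factors and attractants 11 were tested, 3 higher and 8 lower, where 49.6% of all features lay above 0, and 0 passed in limma. Tslp, an epithelial cytokine that acts on mast cells among others, was at 1.93, 3.52 and 3.54 in Fos-deficient specimens 6, 8 and 9, against -0.68, -1.90 and 2.38 in Fos-floxed specimens 2, 3 and 5. Fos-floxed specimen 5 stood within the Fos-deficient range, and the difference was 3.06 (SE 1.16, adjusted p of 0.373 in limma). Cxcl12, a chemokine of stromal cells, differed by 0.97 (SE 0.25) without overlap, where 9.7% of complete features lay higher without overlap. Il13, with a value in 2 Fos-deficient specimens, differed by -0.54 (SE 0.15). No probe was annotated to Kitl, the ligand of Kit.

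Markers of other cell types that share members, or lie in the same tissue, were set beside these values. Basophils share Fcer1a and Cpa3 with mast cells, and 4 of 6 listed basophil genes were tested, 3 higher and 1 lower. Their protease Mcpt8 was at 0.74, 0.67 and 0.35 in Fos-deficient specimens 6, 8 and 9, against 0.10, 0.34 and 0.33 in Fos-floxed specimens 2, 3 and 5, without overlap, a difference of 0.33 (SE 0.14). The integrin chain Itga2, also on that list, differed by -0.66 (SE 0.24) and the cytokine Il6 by 0.07 (SE 0.41). Mcpt8 lay higher and Itga2 lower without overlap, as did 9.7% and 10% of complete features. In RNA from whole papillomas the value of neither gene can be assigned to basophils. The basophil protease Prss34, named after its values were seen, lay between 0.14 and 0.42 in the 6 specimens. Of 10 tested genes of melanocytes, the cells that share Kit, 8 lay higher, where 49.6% of all features lay above 0. The median of the 10 was 0.09, and several of the 8 differed by 0.09 or less. The transcription factor Sox10 differed by 0.61 (SE 0.19) and the pigment enzyme Tyrp1 by 0.98 (SE 0.44). The receptor Ednrb differed by -0.37 (SE 0.17). Over the 9 complete melanocyte genes the mean relative to the Fos-floxed mean was 0.34, 0.49 and -0.04 in Fos-deficient specimens 6, 8 and 9. In Fos-floxed specimens it lay between -0.05 and 0.04.

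Of 13 tested fibroblast genes 10 lay higher, with a median of 0.09, where 49.6% of all features lay above 0. The mean of the fibroblast genes relative to the Fos-floxed mean was 0.62, 0.25 and 0.11 in Fos-deficient specimens 6, 8 and 9, against -0.17 to 0.20 in Fos-floxed specimens. The decorin gene Dcn was at 1.59, 1.47 and 0.44 in Fos-deficient specimens 6, 8 and 9. It was at -0.92, -0.61 and 0.66 in Fos-floxed specimens 2, 3 and 5. Specimens 6 and 8 were the highest and specimen 5 the highest of its group, as for Cma1 and Cpa3. Not all genes of the list shared this order. The root mean square difference from the member mean depends on the span of a gene as well as on its order. By this measure Dcn (0.57) ranked 7901 and Gata2 (0.65) ranked 9497 of 12644 other named genes. Ogn, a small matrix proteoglycan, differed by 0.67 (SE 0.16), and Fbln1, a matrix glycoprotein, by -1.29 (SE 0.56). Of 11 tested macrophage genes 5 lay higher and 6 lower, with a list mean of 0.65 in Fos-deficient specimen 6, -0.71 in specimen 8 and -0.53 in specimen 9, against -0.33 to 0.27 in Fos-floxed specimens. The lysosomal marker Cd68 differed by -0.83 (SE 0.35), the complement gene C1qc by -0.79 (SE 0.39) and Aif1 by 0.17 (SE 0.10). The means of the keratinocyte list, 14 genes, were -0.44, -0.31 and -0.12 in Fos-deficient specimens 6, 8 and 9, against -0.02 to 0.03 in Fos-floxed specimens. That list had 7 genes higher and 7 lower, with a median of 0.05. At an unadjusted p under 0.05 there was 1 gene higher, Krt16, a keratin of activated epidermis named after its values were seen, at 0.52 (SE 0.15), and 5 genes lower, against 4.01% and 8.48% of all features, with Col17a1, a collagen of basal keratinocytes, at -1.44 (SE 0.24), the desmosomal cadherin gene Dsg3 at -1.23 (SE 0.14) and the basal cell factor Trp63 at -0.44 (SE 0.11). Among 6 tested genes of T and NK cells 5 lay higher, with a median of 0.19, and differences of 0.72 (SE 0.38) for Klrd1, 0.46 (SE 0.27) for Cd3d and 0.29 (SE 0.29) for Cd2. Among 6 tested neutrophil genes 2 lay higher, with a median of -0.64, and differences of 0.47 (SE 0.18) for S100a8, -0.64 (SE 0.37) for Cxcr2 and -1.05 (SE 0.89) for Ngp. In these 7 lists 0 genes passed the adjusted threshold in limma. The part of these other cell types in the member values was not tested.

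Among 12644 other named genes with complete values, the 5 whose centred specimen values lay closest to the mean of the 6 members were Casp1, Cpq, Kbtbd11, Trim12c and Psme1. Their root mean square differences over the 6 specimens were between 0.13 and 0.15. Casp1, the protease that activates interleukin 1 beta, was at 1.34, 0.90 and 0.60 in Fos-deficient specimens 6, 8 and 9, against 0.50, 0.25 and 1.06 in Fos-floxed specimens 2, 3 and 5. As in the member mean, specimen 6 was the highest and specimen 3 the lowest, while specimens 5 and 8 changed places. Psme1, a proteasome activator subunit, was at 0.65, 0.51 and 0.36 in the Fos-deficient specimens, against -0.05, -0.35 and 0.46 in the Fos-floxed specimens. The genotype differences of these 5 genes were between 0.35 and 0.57, and none passed in limma.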

How the data were processed

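RNA of the papillomas was extracted with TRIzol and amplified by in vitro transcription, per the labels' protocols. The deposited values are log ratios of papilloma and reference RNA, taken as log2 and as papilloma over reference, 1 per probe and array. How they were normalized, which base the logarithm has and why cells are empty is not given in the sources used here. All 66 array pairs correlated positively (Pearson's r 0.705 to 0.963) and the dye-exchanged pairs of 1 specimen at 0.909 to 0.947, so the deposited log2 ratios were already turned one way, and no sign was changed. Papilloma over reference is the likely direction. The 12 arrays held values for 20811 to 26490 of 37632 probes. The number of specimens, 3 per genotype, limits the precision.

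Symbols are those of the platform annotation, updated through RefSeq gene synonyms (5005 of 20879 probes). A specimen value is the mean of its 2 arrays, or 1 where the other was empty. Probes of a gene with values in all 6 specimens were averaged, otherwise the probe measured in most was used, and features needed values in 2 specimens per group. Groups were compared with limma 3.58.1 (statmod 1.5.0, R 4.3.3) by lmFit and eBayes, two-sided, with Benjamini-Hochberg adjustment over all features. Each specimen is a separate mouse. The 18 alternatives cover array handling, normalization, dye, variance model, a Y-linked term and each specimen left out. The code was tested on simulated data. Python 3.11.15, pandas 2.3.3, scipy 1.17.1 and matplotlib 3.10.9 made tables and figures.

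Members and lists were chosen with earlier results of these data known. Besides members and Fos, the text names Gata2, Mitf, Fcer1g, Tpsab1 and Mcpt8, list genes with the smallest unadjusted p (up to 3 per list), the 5 genes nearest to the member mean, and genes marked as chosen after their values were seen.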

Additional observations from a re-analysis of the deposited data

Results flagged for a closer look

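Mcpt4 and Kit went opposite ways in the specimens with low and high Y-linked signal. Mcpt4 differed by 1.64 where the signal was low (3.54 in Fos-deficient specimen 6, against a mean of 1.90 in Fos-floxed specimens 2 and 3) and by -0.29 where it was high (a mean of 2.69 in Fos-deficient specimens 8 and 9, against 2.99 in Fos-floxed specimen 5). The low-signal difference minus the high-signal one was 1.93 (SE 0.57), with an unadjusted p of 0.0305 and an adjusted p of 0.998 over all features in limma. Kit differed by 0.66 where the signal was low and by -0.60 where it was high, a difference of 1.26 (SE 0.48), with an unadjusted p of 0.0610 and an adjusted p of 0.998 in limma. Neither passed. The same quantity was 1.98 for Cma1 (SE 0.50, unadjusted p of 0.0185 in limma), 1.85 for Cpa3 (SE 0.78), 0.95 for Fcer1a (SE 0.61) and 0.16 for Tpsb2 (SE 0.86), whose differences kept 1 direction in both classes, with an adjusted p of 0.998 in limma for each. In each class 1 genotype has only 1 specimen.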

How the results depend on the processing

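Under the 18 alternatives no member passed: of 106 member values 102 kept their direction, and adjusted p lay between 0.131 and 0.996 in limma. The 4 that turned were Mcpt4 at -0.23 and Kit at -0.19 with the papilloma in Cy3 alone, Tpsb2 at 0.057 with the papilloma in Cy5 alone, and Kit at -0.068 without Fos-floxed specimen 2. In Cy3 alone the median of the members was -0.069 and 3 of 6 lay above 0. On probes measured on all 12 arrays 4 members remained, 3 of them above 0, since Mcpt4 and Fcer1a have an empty array.

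Features with an adjusted p under 0.05 numbered 1 in Cy3 alone, 1 without Fos-deficient specimen 9, and 385 with all 12 arrays fitted at once (specimen as random block, dye as a term), which counts the arrays of a specimen partly as replicates (correlation 0.589). Leaving out 1 specimen gave 0 to 1 such features, and 1547 (without Fos-floxed specimen 2) to 4093 (without Fos-deficient specimen 9) with an unadjusted p under 0.05, against 2751 with all. The member median then ranged from 0.34 to 0.89, members above 0 from 4 to 5, Cma1 from 1.02 to 1.68, Cpa3 from 0.72 to 1.46, Mcpt4 from 0.32 to 1.08, Tpsb2 from -0.68 to -0.05, Fcer1a from 0.25 to 0.90 and Kit from -0.068 to 0.45. The cause of these shifts was not tested. No paired analysis was possible because the specimen numbers of the 2 genotypes do not coincide.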
